A study of Ovis aries with 15 samples.

Results

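Enzymes that conjugate, oxidise at nitrogen or sulphur, or hydrolyse drugs and endogenous compounds were followed in the liver of fetal sheep (Ovis aries). The genes were taken by name from the deposited count table, as those whose symbol starts with UGT1A, UGT2, UGT3, SULT, GST, FMO or CES followed by a family letter or digit, with GSTCD left out. The rule gave 23 of the 31411 genes in the table. They were 5 UGT1A genes (UGT1A1, UGT1A3, UGT1A4, UGT1A6 and UGT1A9), UGT2B7, 4 sulfotransferase genes (SULT1C2, SULT2B1, SULT4A1 and SULT6B1), 4 glutathione transferase genes (GSTA1, GSTA1-1, GSTK1 and GSTZ1), flavin monooxygenase genes (among them FMO1, FMO2 and FMO5) and 4 carboxylesterase genes (CES2, CES3, CES4A and CES5A). No gene of the table was named UGT3, and family members listed under locus names were not analysed here. The stages were gestational days (GD) 100, 124 and 144, with 4, 5 and 6 poly(A) RNA libraries of liver. The labels name no treatment, genotype, breed or sex. The letters that open the sample codes differ by stage, and whether they mark a cohort, a treatment or a batch is not said, so such a factor and the stage cannot be told apart.

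Drug metabolism in the liver is described in stages. Flavin monooxygenases and carboxylesterases change or expose a reactive group on a molecule, and transferases then attach glucuronic acid (UGT enzymes), sulfate (SULT enzymes) or glutathione (GST enzymes), which makes the product easier to export in bile or urine. The fetus relies largely on the placenta and the mother for this work, and glucuronidation in particular is known to be low in fetal liver and to increase around birth. The same enzymes also handle bilirubin, steroids, bile acids and lipid esters.

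Library totals ran from 24215612 to 38247295 estimated counts. Levels are given in counts-per-million units (CPM) scaled by edgeR's TMM factors, and a floor of detection of 3 counts corresponded to 0.0796 to 0.128 CPM. Such floors cover counting error only. The libraries were liver by their markers, since the 12 hepatocyte markers were above 0 in every library and summed to 60012 to 181668 CPM at GD100, 228672 to 266646 CPM at GD124 and 180042 to 224176 CPM at GD144. Erythroid markers had lower sums at each later stage, with 4649 to 11539, 1805 to 3678 and 74.9 to 885 CPM. The 2 sums thus moved in opposite directions from GD100 to GD124, and both were lower at GD144 than at GD124. Both sums were uneven within stages: GD100 replicates 2 and 3 had the lowest hepatocyte and the highest erythroid sums of their stage, and GD144 replicate 3 had the highest erythroid sum of GD144. GD100 replicates 2 to 4 also stood apart in counting, with a fractional count in 10.6 to 10.8% of genes against 5.09 to 6.20% in the other libraries. In whole tissue, fewer cells of a type and less RNA per cell cannot be told apart. The labels do not state whether each library is from its own fetus, and p-values therefore measure only the spread between samples, which may be technical.

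Most of the enzyme genes that could be tested rose over the span, and the set was led by glucuronidation and the carboxylesterases. Of the 23 genes, 18 passed the filter on low counts and 5 (CES5A, FMO1, SULT2B1, SULT4A1 and SULT6B1) did not. From GD100 to GD144, 13 rose and 2 fell (FMO2 and GSTA1-1) by edgeR's quasi-likelihood test at an adjusted p under 0.05, while 27.1% of the 16977 genes tested were called higher and 27.9% lower. Libraries of GD100 and GD144 did not overlap in 11 genes that were higher and 2 that were lower, a pattern that 19.2% and 20.8% of all tested genes showed. From GD100 to GD124, 9 rose and 0 fell (background 16.6% higher and 17.4% lower), and for 5 the libraries of both stages did not overlap, all higher at GD124 (background 11.6%). From GD124 to GD144, 9 rose and 3 fell (background 12.1% and 15.4%), and 7 higher and 3 lower ones showed no overlap (background 7.81% and 11.0%). When GD100 replicate 1 stood alone for its stage, with its spread taken from the other stages, the earlier rises of CES2, CES3 and GSTK1 were still called. Without GD100 replicates 2 and 3 together, an alternative added after the data were seen, those of CES3 and GSTK1 were, and over the span 9 rises were called in the first of these fits and 12 in the second. Both fits rest on fewer GD100 libraries. Genes that passed the filter through a stage where they are high had to differ between stages, so these counts describe the 18 genes and support nothing beyond them.

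The median log2 change of the 18 genes was 0.98 from GD100 to GD124, 0.71 from GD124 to GD144 and 2.09 over the span, beside medians of 0.02, -0.01 and 0.03 over all tested genes. Setting UGT1A4, which had no count at GD100, to its lower bound left the first and the last of these medians as they were. In order of the intervals, CES3, GSTK1, UGT1A1 and UGT1A4 rose in both, and 4 genes rose in the earlier one alone by call (CES2, FMO5, UGT1A3 and UGT1A6). Another 4 rose in the later one alone by call (CES4A, GSTZ1, UGT1A9 and UGT2B7), 3 fell in the later one alone by call (FMO2, GSTA1 and GSTA1-1), and FMO4 and SULT1C2 passed in neither. The difference between the intervals itself passed the edgeR test for CES3, CES4A and GSTA1-1. It was called higher for 2.15% and lower for 3.75% of all tested genes. For the other 15 genes a call in one interval and none in the other does not show that the intervals differ.

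**Figure D1:**
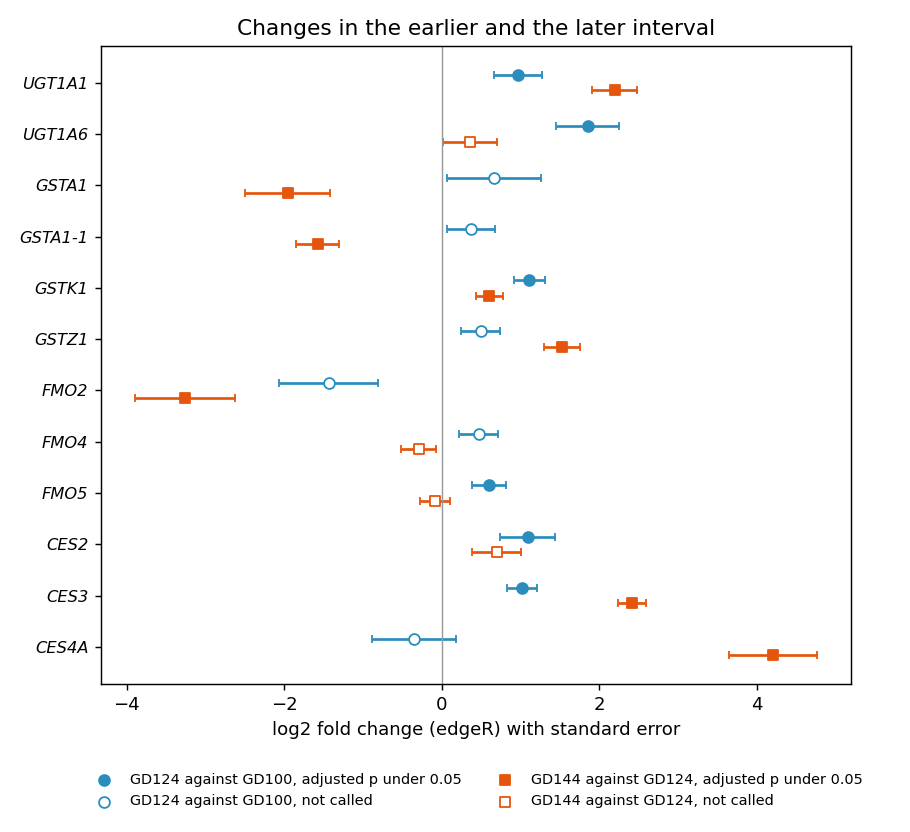
Log2 fold changes of 12 members with a mean of at least 10 CPM in their highest stage (horizontal axis, edgeR, bars are standard errors), for GD124 against GD100 (circles) and GD144 against GD124 (squares), filled where the adjusted p was under 0.05. UGT1A3 is left out for its large error. CES4A had the largest later rise at 4.21. In the later interval FMO2, GSTA1 and GSTA1-1 lie to the left of 0 and were called, and FMO4 and FMO5 lie there without a call.

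Glucuronidation genes rose together as a family sum. UGT1A enzymes attach glucuronic acid to bilirubin, phenols, steroids and many drugs, and in mammals the UGT1A transcripts share their last exons and differ in the first. In the RefSeq annotation of ARS-UI_Ramb_v3.0 all 5 genes overlap one another. Their deposited counts were fractional in every library where they were above 0, so how reads were divided among the 5 is uncertain, and the strand setting of the counting is not given in the sources used here. The sum of the 5 does not depend on the division among them. All of them except UGT1A1 also overlap genes that RefSeq lists under locus names, and a division of reads with those would move the sum too. The GD100 libraries had 52.6, 34.3, 46.8 and 61.4 CPM, those of GD124 had 240.0, 210.1, 152, 159 and 78.7 CPM, and those of GD144 had 184, 295, 443, 348, 430 and 723 CPM. Every GD124 library was above every GD100 library, while GD144 replicate 1 lay below GD124 replicates 1 and 2. Tested as 1 gene (a choice made with the data in view), the sum rose by log2 1.78 ± 0.36 (SE, edgeR adjusted p = 0.00183) and then by 1.27 ± 0.32 (adjusted p = 0.00776), or 3.05 ± 0.38 over the span (adjusted p = 6.06e-06).

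**Figure D2:**
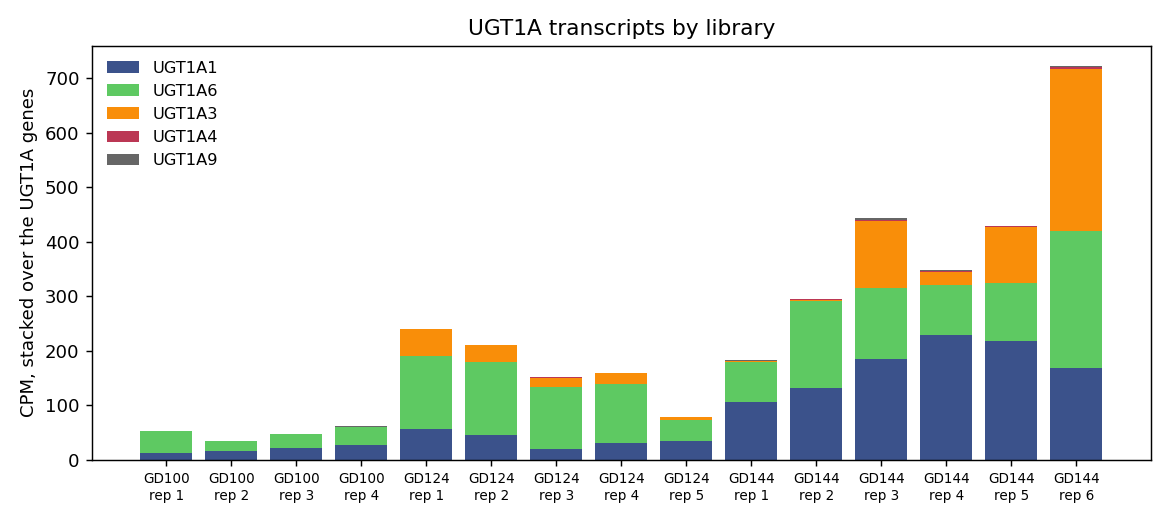
CPM of the UGT1A genes stacked for each of the 15 libraries (vertical axis from 0). The stacks reach 34.3 to 61.4 CPM at GD100 and 184 to 723 CPM at GD144, and the UGT1A3 layer differs most between the GD144 libraries.

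UGT1A1, the bilirubin-conjugating enzyme, stood at 12.4, 16.3, 22.3 and 26.7 CPM at GD100 and at 57.2, 45.8, 20.1, 31.4 and 34.9 CPM at GD124. The GD144 libraries had 105, 132, 186, 229, 219 and 169 CPM, all above every earlier library, while the earlier stages overlapped through GD124 replicate 3. The rise was log2 0.96 ± 0.30 in the earlier interval (edgeR adjusted p = 0.0220) and 2.19 ± 0.28 in the later one (adjusted p = 5.53e-05). The earlier call was lost without GD100 replicate 1 (adjusted p = 0.0630), GD100 replicate 2 (0.0750) or GD124 replicate 1 (0.0602). It was also lost without GD100 replicates 2 and 3 together (0.133) and with the replicate number as a block (0.0690). With GD100 replicate 1 alone the earlier change was log2 1.61, and it was not called. The difference between the intervals did not pass (1.23 ± 0.50, adjusted p = 0.149).

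UGT1A6, which conjugates small phenols, had the reverse order of step sizes. Its libraries read 40.1, 17.9, 24.3 and 34.3 CPM at GD100, then 133, 134, 114, 107 and 37.8 CPM at GD124 and 74.0, 159, 129, 92.1, 105 and 250.1 CPM at GD144. GD124 replicate 5 lay among the GD100 libraries, and the other 4 GD124 libraries lay within the range of GD144. UGT1A6 rose by log2 1.85 ± 0.40 in the earlier interval (edgeR adjusted p = 0.00307), and the later change of 0.36 ± 0.35 did not pass (adjusted p = 0.480). The test of a difference between the intervals gave -1.49 ± 0.61 (adjusted p = 0.159). With GD100 replicate 1 alone, the earlier adjusted p was 0.222 and that over the span 0.0894. Without GD100 replicates 2 and 3 together the earlier one was 0.0730.

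UGT1A3, a form known for conjugating bile acids among other substrates, was at 0, 0.140, 0.291 and 0 CPM at GD100. It stood at 49.4, 30.1, 17.0, 20.3 and 5.89 CPM at GD124. The GD144 libraries spread widely, with 1.51 and 1.25 CPM in replicates 1 and 2 and 124, 24.0, 103 and 299 CPM in replicates 3 to 6. The rise from GD100 was log2 7.80 ± 1.89 to GD124 (edgeR adjusted p = 0.00714) and 9.70 ± 1.96 to GD144 (adjusted p = 0.000855). The later interval did not pass (1.91 ± 1.10, adjusted p = 0.223), and its GD144 libraries lay both below and above all those of GD124. With GD100 replicate 1 alone the adjusted p was 0.198 for the earlier interval and 0.0922 over the span, and without GD100 replicates 2 and 3 together it was 0.0917 for the earlier interval.

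The median make-up of the UGT1A counts differed between stages, which was not tested. UGT1A6 held a median of 54.1% of them at GD100 (range 51.8 to 76.3%), 63.8% at GD124 (48.0 to 74.9%) and 31.8% at GD144 (24.4 to 54.0%). UGT1A1 held 45.4% (23.7 to 47.6%), 21.8% (13.2 to 44.4%) and 47.9% (23.3 to 65.8%). For both genes the ranges of every pair of stages overlapped. UGT1A3 held 0.203%, 12.7% and 15.4%, with a range of 0.423 to 41.3% at GD144. These are shares of counts as the table divides them, without correction for transcript length, and they carry the uncertainty of that division.

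The remaining UGT genes were rare. UGT1A4 had no count in any GD100 library, read 0.0947, 0, 0.503, 0.685 and 0 CPM at GD124 and averaged 1.84 ± 1.02 CPM (SD, n = 6) at GD144. Against the mean floor of 3 counts per library, which was 0.106 CPM at GD100, its mean was at least 2.41-fold higher at GD124 and at least 17.3-fold higher at GD144. Without GD124 replicate 4 the first of these bounds was 1.40-fold. It passed the edgeR test in both intervals (adjusted p = 0.0269 and 0.0345). Its earlier call was lost without GD100 replicate 1, 2 or 3 (adjusted p = 0.0513, 0.0568 and 0.0565) or GD124 replicate 3 or 4 (0.0534 and 0.0587). Its earlier call was also lost with GD100 replicate 1 alone, and without GD100 replicates 2 and 3 together (adjusted p = 0.132). Its later call was lost without GD124 replicate 1, 2 or 5 (0.0769, 0.0546 and 0.0600) or GD144 replicate 4, 5 or 6 (0.0544, 0.0571 and 0.0665). It was also lost with the replicate number as a block (0.0622).

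UGT1A9 had counts in 1 of the 4 GD100 libraries (0.391 CPM in replicate 4), read 0.0947 to 0.470 CPM at GD124 and 0.778 to 3.01 CPM at GD144. It rose by log2 3.26 ± 0.81 in the later interval (edgeR adjusted p = 0.00659). The earlier interval had an adjusted p of 0.473, and of 0.00644 without GD100 replicate 4. UGT2B7, of a family that conjugates steroids and opioids, stood at 0 to 0.316 CPM at GD100, 0.284 to 0.612 CPM at GD124 and 0.256 to 4.98 CPM at GD144. It rose by log2 2.57 ± 0.68 in the later interval (adjusted p = 0.0100) and 4.68 ± 0.88 over the span (adjusted p = 0.000271), with GD144 replicate 1 at 0.256 CPM below all 5 GD124 libraries. The change over the span was 3.10 with GD100 replicate 1 alone, where the call was lost (adjusted p = 0.0509), and 6.58 without that library. Its earlier change had an adjusted p of 0.0703, which was 0.00961 without GD100 replicate 1 and 0.0338 without GD144 replicate 1.

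Sulfotransferase transcripts were close to absent under these 4 names. SULT1C2, the one of them that could be tested, had a highest value of 1.80 CPM in any library and stage means of 0.507, 0.787 and 0.453 CPM. It passed in no comparison (edgeR adjusted p = 0.521, 0.387 and 0.865). SULT2B1, a cholesterol and steroid sulfotransferase, had 12 counts in all 15 libraries together and none above the floor. SULT4A1, known from brain, had 20 counts in all and was above the floor in 2 libraries. SULT6B1 had no count in any library, which allows up to 0.128 CPM in the shallowest of them. Phenol and steroid sulfotransferases that the table may list under other names were not analysed here.

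Glutathione transferases split by class. The alpha class enzymes GSTA1 and GSTA1-1, which are abundant in adult liver of many mammals and conjugate electrophiles and lipid peroxidation products, fell towards term. GSTK1, a kappa class enzyme of mitochondria and peroxisomes, and GSTZ1, a zeta class enzyme that isomerises maleylacetoacetate in tyrosine breakdown, rose. GSTA1 and GSTA1-1 are separate genes in the table and in RefSeq. GSTA1 had fractional counts in 13 libraries and GSTA1-1 in none. The source of the fractions was not tested, and the values of GSTA1 are the less certain.

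GSTA1 stood at 163, 71.5, 89.0 and 168 CPM at GD100 and at 176, 187, 225, 208 and 177 CPM at GD124. At GD144 it read 5.16, 36.7, 42.6, 94.6, 20.1 and 102 CPM, all below every GD124 library, with replicate 1 lowest. The later fall was log2 -1.96 ± 0.54 (edgeR adjusted p = 0.0148). The earlier change of 0.66 ± 0.60 did not pass (adjusted p = 0.414), although every GD124 library was above every GD100 library. Over the span the change was -1.29 ± 0.56 (adjusted p = 0.0630), which passed without GD144 replicate 1 (adjusted p = 0.0370), replicate 4 (0.0336) or replicate 6 (0.0246).

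GSTA1-1 showed the same late fall with less spread. Its values were 251, 159.7, 175 and 379 CPM at GD100, then 359, 356, 236, 235 and 375 CPM at GD124 and 58.0, 107, 128, 115, 62.4 and 156 CPM at GD144. All GD144 libraries lay below all earlier ones, and the 2 earlier stages overlapped. It fell by log2 -1.58 ± 0.28 in the later interval (edgeR adjusted p = 0.000579) and by -1.20 ± 0.29 over the span (adjusted p = 0.00212). The later change minus the earlier one was -1.95 ± 0.49 on the log2 scale (adjusted p = 0.0295). That test did not pass without GD100 replicate 2 (0.0624), GD100 replicate 3 (0.0697), or GD124 replicate 1 (0.0745), 2 (0.0812) or 5 (0.0690). Nor did it pass without GD100 replicates 2 and 3 together (0.121), with the replicate number as a block (0.0645) or with GD100 replicate 1 alone.

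GSTK1 rose in steps. It read 51.6, 38.3, 43.1 and 83.7 CPM at GD100, 92.7, 121, 121, 133 and 118 CPM at GD124, and 154, 201, 175, 169, 176 and 193 CPM at GD144. No stage overlapped another. The log2 changes were 1.11 ± 0.20 (edgeR adjusted p = 0.000724) and 0.60 ± 0.17 (adjusted p = 0.0160). GSTZ1 stood at 30.6, 40.6, 61.9 and 54.2 CPM, then 74.6, 86.9, 68.6, 59.2 and 40.2 CPM, then 121, 148, 224, 219, 215 and 214 CPM. Its earlier stages overlapped (log2 0.49 ± 0.25, adjusted p = 0.135), and it rose by 1.53 ± 0.23 in the later interval (adjusted p = 0.000169). In RefSeq GSTZ1 overlaps POMT2, which stayed at 12.1 to 18.5 CPM in all libraries.

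**Figure D3:**
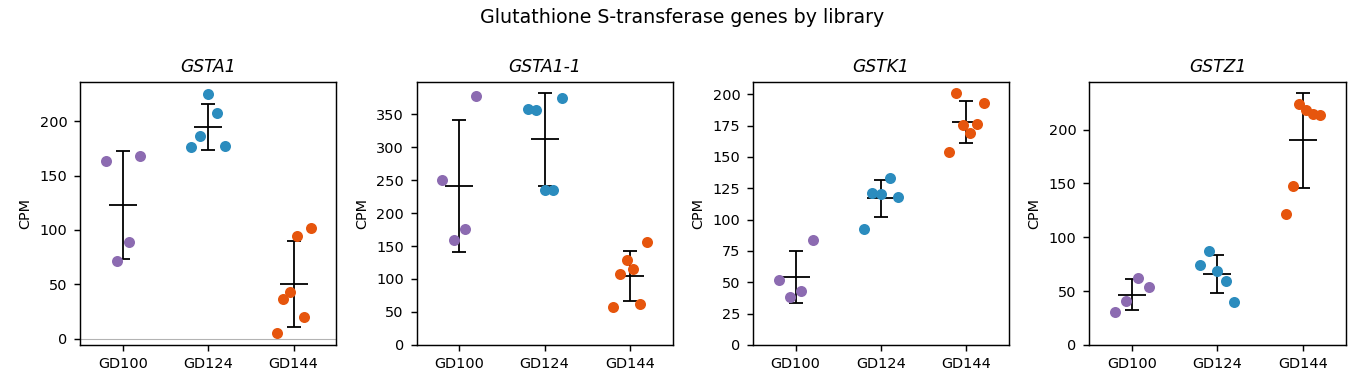
CPM of the 4 glutathione transferase genes by stage (points are libraries, bars the mean and SD, n = 4, 5 and 6, each axis from 0). GSTA1 and GSTA1-1 are lowest at GD144, where all libraries lie below all GD124 libraries, and GSTK1 and GSTZ1 are highest there.

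The 4 GST genes summed to 465 ± 166 CPM (SD, n = 4) at GD100, 690 ± 47.2 CPM (n = 5) at GD124 and 523 ± 114 CPM (n = 6) at GD144, and the range of GD144 overlapped those of both other stages.

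FMO1, the main flavin monooxygenase of human fetal liver, was near the floor in these sheep. It had 113 counts in all libraries together and was not tested in the main fit. Its range was 0.0316 to 0.218 CPM at GD100, 0 to 0.0652 CPM at GD124 and 0.0576 to 2.01 CPM at GD144, where replicate 6 was highest. In the fit without GD100 replicates 2 and 3, FMO1 passed the filter and was called higher at GD144 than at GD124.

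FMO2, known as the lung form, fell. It stood at 5.49, 21.0, 16.8 and 6.37 CPM at GD100, 2.91, 5.44, 3.99, 1.99 and 8.66 CPM at GD124 and 0.224, 0.184, 1.35, 0.519, 0.0300 and 0.484 CPM at GD144. The fall was log2 -3.26 ± 0.64 in the later interval (edgeR adjusted p = 0.00153) and -4.69 ± 0.67 over the span (adjusted p = 3.33e-05). The earlier change of -1.44 ± 0.63 did not pass (adjusted p = 0.0902), and passed without GD144 replicate 3 (0.0454). Within each stage FMO2 was highest in the libraries with the highest erythroid marker sums. These were GD100 replicates 2 and 3 (11539 and 9080 CPM of erythroid markers), GD124 replicate 5 (3678 CPM) and GD144 replicate 3 (885 CPM). Of the 12 tested erythroid markers 2 fell in the earlier interval and 12 in the later one. The part of that movement in the FMO2 result was not tested.

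FMO4 passed in no comparison, and FMO5 passed narrowly. FMO4 read 44.7 to 69.1 CPM at GD100 (median 52.7), 56.4 to 105 CPM at GD124 (median 75.5) and 34.3 to 86.9 CPM at GD144 (median 62.2) (edgeR adjusted p = 0.165 in the earlier interval, 0.365 in the later one and 0.567 over the span). FMO5 read 15.1 to 20.6 CPM (median 16.7), 15.2 to 34.6 CPM (median 26.1) and 16.1 to 31.6 CPM (median 24.5), and all 3 stages overlapped. Its means were 17.3 ± 2.41 (SD, n = 4), 26.1 ± 7.69 (n = 5) and 24.6 ± 5.08 CPM (n = 6). Its calls for GD124 and GD144 against GD100 were at the threshold (log2 0.60 ± 0.22, adjusted p = 0.0437, and 0.51 ± 0.21, adjusted p = 0.0497). The earlier call was lost without GD100 replicate 2, 3 or 4, GD124 replicate 1, 2 or 4, or GD144 replicate 1, 4 or 5, at adjusted p of 0.0522 to 0.126. The call over the span was lost without GD100 replicate 2, 3 or 4, GD124 replicate 1, 3 or 4, or any GD144 replicate except 2, at 0.0519 to 0.112. Both calls were also lost with RLE factors (edgeR adjusted p = 0.0582 and 0.0627), total counts alone (0.136 and 0.102) or DESeq2 (0.0534 and 0.0666). Of 26 alternative fits, the earlier call held in 11 and the call over the span in 8. FMO5 overlaps PRKAB2 in RefSeq, which averaged 19.8, 32.7 and 25.3 CPM over the stages. Reads of the pair therefore cannot be told apart without strand.

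All 3 testable carboxylesterases rose over the span. CES2, which hydrolyses esters with a large alcohol part and activates several prodrugs, stood at 122, 48.0, 65.0 and 228 CPM at GD100, 217, 239.5, 301, 285 and 190.2 CPM at GD124 and 263, 379, 392, 419, 451 and 496 CPM at GD144. All GD144 libraries were above all of GD100, and neighbouring stages overlapped through GD100 replicate 4 and GD144 replicate 1. CES2 rose by log2 1.79 ± 0.35 over the span (edgeR adjusted p = 0.000422) and by 1.09 ± 0.35 in the earlier interval (adjusted p = 0.0244). The later change was 0.70 ± 0.31 (adjusted p = 0.109). The earlier call was lost without GD100 replicate 2 (0.0634), GD100 replicate 3 (0.0847) or GD124 replicate 3 (0.0523), and without both GD100 replicates 2 and 3 the change was 0.50 (0.220). In turn, the later change passed without GD100 replicate 2 (0.0394) or 4 (0.0211), or without replicates 2 and 3 together (0.0132). It also passed when only GD124 and GD144 were fitted (log2 0.70, edgeR adjusted p = 0.00548).

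CES3 had the smallest adjusted p of the 18 genes in the later interval. It stood at 25.0, 16.9, 23.3 and 30.0 CPM at GD100, 70.0, 44.2, 44.6, 40.4 and 41.5 CPM at GD124 and 235, 212, 250.4, 278, 292 and 271 CPM at GD144, and no stage overlapped another. The log2 changes were 1.02 ± 0.19 (edgeR adjusted p = 0.00102) and 2.41 ± 0.18 (adjusted p = 3.75e-07). The later step was larger by 1.40 ± 0.31 (adjusted p = 0.0179). The test of that difference did not pass without GD124 replicate 2 (0.0573) or 4 (0.0555), or with the replicate number as a block (0.0557).

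CES4A, a carboxylesterase whose substrates are little known, rose late. It read 21.2, 4.01, 5.86 and 13.1 CPM at GD100. At GD124 it was at 3.06 CPM in replicate 2 and 9.25 to 11.1 CPM in the other 4 libraries. At GD144 it read 99.0, 87.5, 100.0, 326, 239 and 105 CPM. The 2 earlier stages overlapped (log2 -0.35 ± 0.53, adjusted p = 0.640), and all GD144 libraries lay above both, with replicates 4 and 5 well above the other 4. The later rise was 4.21 ± 0.56 (edgeR adjusted p = 0.000108), larger than the earlier change by 4.56 ± 0.97 (adjusted p = 0.0173). CES5A had 3 counts in all libraries together and was above the floor in none.

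**Figure D4:**
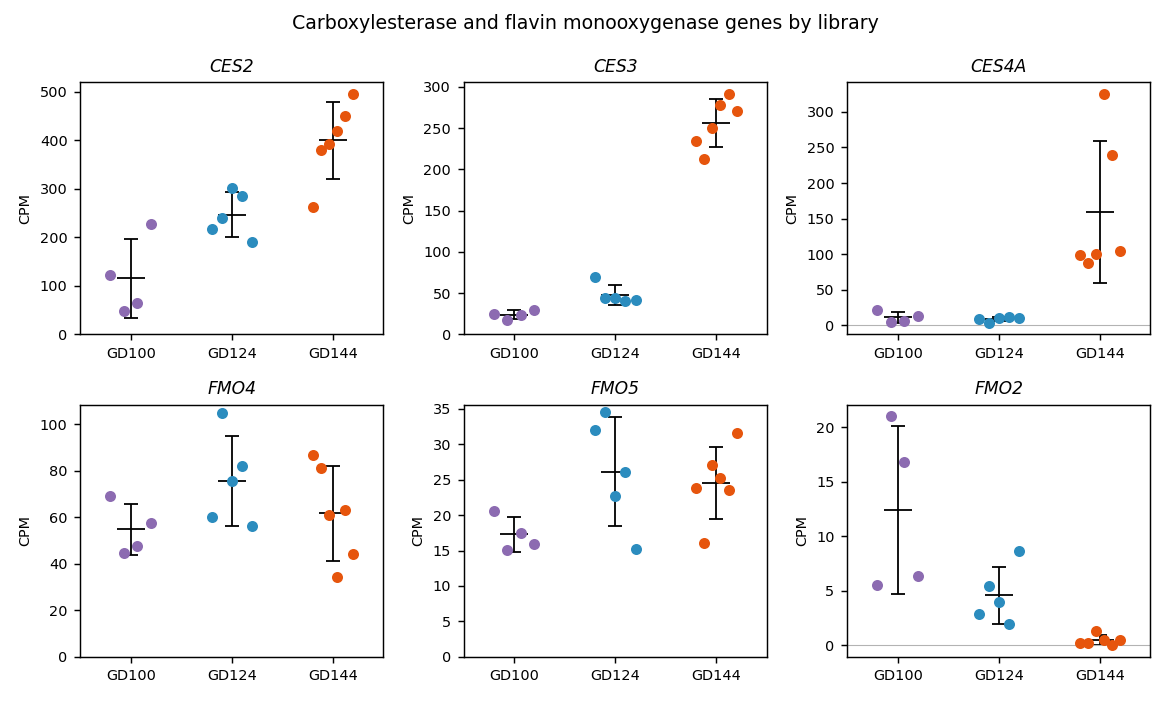
CPM of carboxylesterase and flavin monooxygenase genes by stage (points are libraries, bars the mean and SD, n = 4, 5 and 6, each axis includes 0). CES3 separates all 3 stages, CES4A is high at GD144 alone among the stages, and FMO2 goes from 12.4 to 0.466 CPM on average.

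Most hepatocyte markers rose in the earlier interval and few in the later one. Of 12 hepatocyte markers 10 rose and 0 fell from GD100 to GD124, and 2 rose and 1 fell from GD124 to GD144. Set against their sum, a measure added later with the data in view and given without a test, CES2 stood at 1.02 ± 0.206 (SD, n = 4), 0.995 ± 0.126 (n = 5) and 1.93 ± 0.292 (n = 6) CPM per 1000 CPM of hepatocyte markers. CES3 went from 0.250 ± 0.0681 and 0.197 ± 0.0573 to 1.25 ± 0.161. GSTK1 went from 0.543 ± 0.0881 and 0.475 ± 0.0523 to 0.865 ± 0.0328, and UGT1A1 from 0.210 ± 0.0942 and 0.156 ± 0.0637 to 0.842 ± 0.234. For these 4 genes the libraries of GD100 and GD124 overlapped on this scale and those of GD144 lay above both. GSTA1-1 went from 2.37 ± 0.241 through 1.28 ± 0.356 to 0.505 ± 0.171, and GSTA1 from 1.21 ± 0.237 through 0.789 ± 0.0379 to 0.238 ± 0.184, with no overlap between stages for either gene. UGT1A6 stood at 0.298 ± 0.0783, 0.425 ± 0.160 and 0.643 ± 0.261, and its GD124 libraries overlapped both other stages. Other members did not follow that order. GSTZ1 stood at 0.528 ± 0.285, 0.267 ± 0.0705 and 0.924 ± 0.211, with GD144 overlapping GD100. FMO4 stood at 0.590 ± 0.187, 0.307 ± 0.0737 and 0.304 ± 0.114, and FMO5, called higher in CPM after GD100, at 0.193 ± 0.0753, 0.106 ± 0.0322 and 0.120 ± 0.0263. The measure weighs abundant markers most. Taken instead against the median of the markers on a log2(CPM + 1) scale, CES2 lay at -4.46 ± 0.36, -4.25 ± 0.30 and -3.71 ± 0.13. CES3 lay at -6.46 ± 0.35, -6.59 ± 0.36 and -4.33 ± 0.21, and UGT1A1 at -6.77 ± 0.60, -6.98 ± 0.59 and -4.93 ± 0.32. GSTK1 lay at -5.35 ± 0.23, -5.30 ± 0.18 and -4.85 ± 0.20, and its GD100 and GD144 libraries overlapped on that scale. GSTZ1 lay at -5.54 ± 0.72, -6.16 ± 0.47 and -4.79 ± 0.22, and UGT1A6 at -6.21 ± 0.39, -5.57 ± 0.82 and -5.36 ± 0.47.

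**Figure D5:**
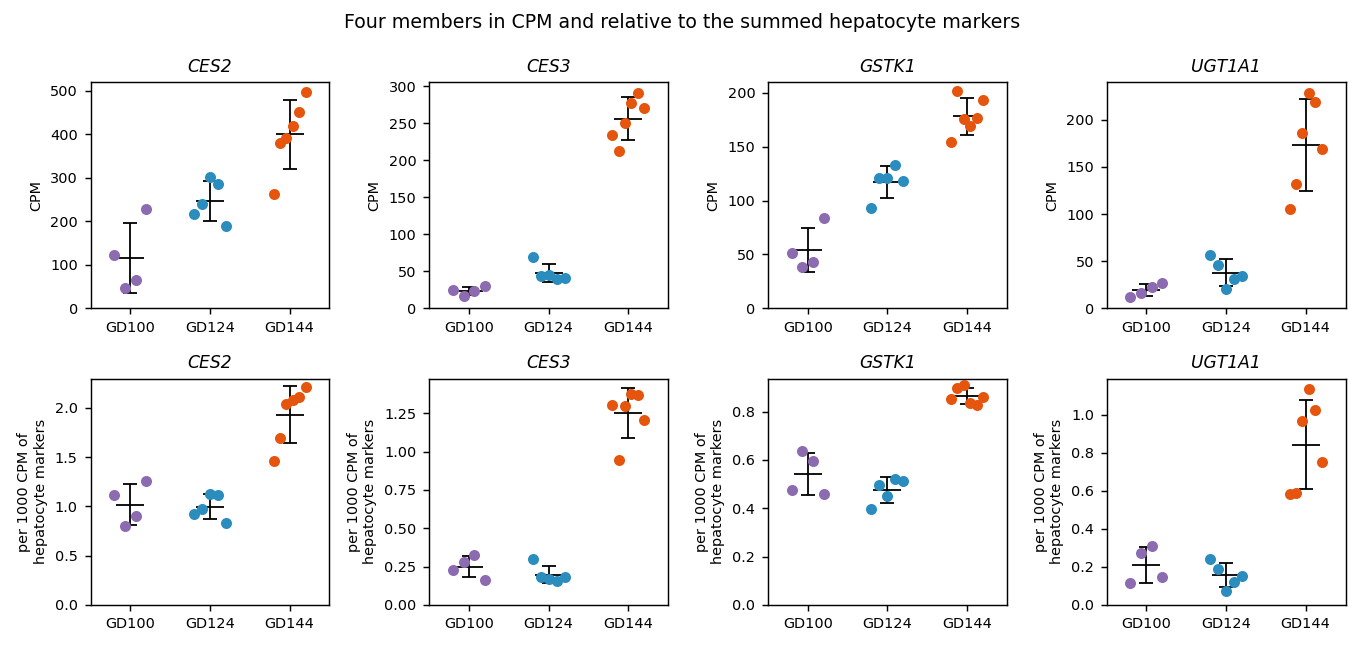
CES2, CES3, GSTK1 and UGT1A1 by stage in CPM (upper row) and per 1000 CPM of the 12 summed hepatocyte markers (lower row). Points are libraries, bars the mean and SD (n = 4, 5 and 6), and each axis starts at 0. In the lower row GD100 and GD124 overlap for each gene, and GD144 lies above both.

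Single libraries ranked alike across many of the 18 genes. GD100 replicate 2 was the lowest of its stage in 11 of them and GD100 replicate 4 the highest in 8. In these counts a tie went to the tied library with the lowest replicate number. At GD144 replicate 1 was lowest in 10 and replicate 6 highest in 8. The hepatocyte marker sums of GD100 replicates 2 and 4 were the lowest and the highest of that stage (60012 and 181668 CPM). The part of these differences between libraries in the results was not tested, except by leaving libraries out.

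Genes that supply or follow these reactions were counted in 6 lists, with edgeR over all tested genes. The shares of all tested genes to read them against are 16.6% higher and 17.4% lower in the earlier interval, 12.1% and 15.4% in the later one and 27.1% and 27.9% over the span. Of 13 tested genes for the cofactors of glucuronidation and sulfation, 7 rose and 0 fell in the earlier interval, 5 rose and 1 fell in the later one, and 8 rose and 1 fell over the span (median log2 1.02). UGP2 and UGDH, which make UDP-glucuronic acid, rose from 18.0 ± 5.17 to 197 ± 31.1 CPM (log2 3.45, adjusted p = 1.36e-08) and from 58.5 ± 14.4 to 284 ± 109 CPM (log2 2.28, adjusted p = 5.40e-06) over the span. PAPSS2, which makes the sulfate donor, rose from 6.87 ± 3.47 to 76.5 ± 41.0 CPM (log2 3.47, adjusted p = 6.84e-06). SLC26A1, a sulfate carrier, fell from 86.4 ± 27.2 to 52.6 ± 8.49 CPM (log2 -0.72, adjusted p = 0.00379).

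Most of the called genes of glutathione supply and recycling fell. Of 11 tested genes 0 rose and 4 fell in the earlier interval, 2 rose and 6 fell in the later one, and 2 rose and 7 fell over the span (median log2 -0.83). GCLC and GCLM, both subunits of the enzyme that limits glutathione synthesis, fell from 291 ± 48.6 to 105 ± 15.4 CPM (log2 -1.46, adjusted p = 5.15e-07) and from 145 ± 63.2 to 45.5 ± 10.6 CPM (log2 -1.67, adjusted p = 1.52e-05). GPX1, a glutathione peroxidase that red cell precursors also express, fell from 1254 ± 575 to 104 ± 62.7 CPM (log2 -3.59, adjusted p = 1.19e-06). Erythroid marker sums fell in the same libraries, and their part in this was not tested. The 2 genes that rose were CBS and CTH, which make cysteine from homocysteine. CBS went from 82.7 ± 19.4 to 158 ± 17.2 CPM (log2 0.94, adjusted p = 8.27e-05) and CTH from 30.1 ± 16.05 to 124 ± 77.7 CPM (log2 2.04, adjusted p = 0.00393). The call of CTH over the span was lost with GD100 replicate 1 alone (0.266) and without GD100 replicates 2 and 3 (0.0744).

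In the list of microsomal glutathione transferases and other conjugating enzymes, 4 of 14 tested genes rose and 1 fell earlier, 2 rose and 1 fell later, and 7 rose and 1 fell over the span (median log2 0.55). The later counts of this list were near or below the shares of all tested genes. The gene that fell over the span was MGST3 (92.6 ± 33.5 to 21.2 ± 8.55 CPM, log2 -2.13, edgeR adjusted p = 1.17e-05). Among other hydrolases of drugs and conjugates, 6 of 12 rose and 0 fell earlier, 3 rose and 0 fell later, and 10 rose and 0 fell over the span (median log2 0.88). EPHX1, microsomal epoxide hydrolase, rose from 264 ± 86.0 to 545 ± 65.2 CPM (log2 1.05, adjusted p = 0.000129). GUSB, which removes glucuronic acid from conjugates, rose from 32.8 ± 8.87 to 170.2 ± 39.1 CPM (log2 2.38, adjusted p = 5.42e-07), and PON3, a lactonase, from 45.5 ± 10.7 to 206 ± 87.1 CPM (log2 2.18, adjusted p = 3.31e-05).

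Of 9 tested transporters of conjugates, 3 rose and 1 fell earlier, 3 rose and 1 fell later, and 5 rose and 3 fell over the span (median log2 1.08). The falls were near or below the shares of all tested genes. SLCO2B1, an importer of organic anions, rose from 13.4 ± 3.60 to 120.2 ± 25.7 CPM (log2 3.17, adjusted p = 5.69e-08), and ABCC2, the canalicular exporter of glucuronides, from 45.7 ± 12.8 to 104 ± 8.49 CPM (log2 1.19, adjusted p = 9.12e-05). ABCG2, an exporter of sulfates that blood stem cells also carry, rose to 109.9 ± 24.8 CPM at GD124 (log2 0.69, adjusted p = 0.00715) and fell to 46.6 ± 8.67 CPM at GD144 (log2 -1.24, adjusted p = 4.61e-05). When GD100 was represented by replicate 1 alone, the earlier adjusted p of ABCG2 was 0.171 and that of ABCC2 over the span was 0.0770. Without GD100 replicates 2 and 3, the earlier adjusted p of ABCG2 was 0.0870.

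Of 18 tested regulators of these enzymes 9 rose and 1 fell earlier, 7 rose and 1 fell later, and 14 rose and 2 fell over the span (median log2 0.75). NR1I2, the xenobiotic receptor PXR, rose from 13.2 ± 4.25 to 41.0 ± 10.1 CPM (log2 1.63, adjusted p = 4.76e-05), HNF4A from 114 ± 23.1 to 324 ± 44.4 CPM (log2 1.51, adjusted p = 3.49e-06) and AHR, the dioxin receptor, from 4.92 ± 0.250 to 9.35 ± 0.660 CPM (log2 0.93, adjusted p = 6.53e-05). FOXA2, a hepatic factor, fell from 15.1 ± 4.83 to 3.40 ± 1.52 CPM (log2 -2.16, adjusted p = 5.36e-06), and KEAP1, which holds the antioxidant factor NRF2 in check, from 89.3 ± 10.4 to 55.2 ± 5.38 CPM (log2 -0.69, adjusted p = 4.24e-05). Of the list genes named, UGP2, PAPSS2, SLC26A1, SLCO2B1, HNF4A, AHR and KEAP1 overlap another gene in RefSeq, so their values are uncertain without strand. The named list genes were chosen after their values were seen.

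Most of the earlier list counts above 0 were smaller without GD100 replicates 2 and 3. These libraries had the lowest hepatocyte marker sums, and the fit without them rests on fewer GD100 libraries. Without both, the earlier interval had 2 higher and 0 lower genes for cofactor supply, 0 and 1 for glutathione supply, 1 and 0 for other conjugating enzymes, 2 and 0 for other hydrolases, 1 and 0 for transporters and 3 and 1 for regulators. Over the span the same lists had 6 and 1, 1 and 6, 4 and 2, 6 and 0, 3 and 3, and 12 and 3. Without GD144 replicate 3, the library with the highest erythroid sum of its stage, the span counts were 8 and 1, 2 and 7, 5 and 1, 10 and 0, 5 and 2, and 14 and 2. The shares of all tested genes called in these fits are not given here. Fewer calls in general and a change of these lists therefore cannot be told apart.

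Scaling bears on directions in the earlier interval. With total counts alone the median change of all tested genes from GD100 to GD124 was -0.16, and 1808 genes were called higher and 4045 lower, against 2825 and 2948 with TMM factors. From GD124 to GD144 it gave 2520 higher and 2139 lower, against 2046 and 2617. Of the 18 enzyme genes 8 rose and 0 fell in the earlier interval under that scaling, and 9 rose and 3 fell in the later one. In the earlier interval the lists then had 6 higher and 0 lower genes for cofactor supply, 0 and 7 for glutathione supply, 2 and 1 for other conjugating enzymes, 3 and 0 for other hydrolases, 2 and 1 for transporters and 5 and 1 for regulators. Over the span other conjugating enzymes had 5 and 2, and in the later interval regulators had 10 and 1.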

How the data were processed

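The deposited table holds the authors' estimated count of reads per gene and library, unnormalised. The submitters' processing notes name DRAGEN without a version, with build, annotation and strand setting not given in the sources used here. Fractional values (6.55%) were rounded, which moved library totals by at most 27.9 reads. The main test was edgeR's quasi-likelihood test (edgeR 4.0.16, limma 3.58.1, R 4.3.3), 1 model over the 15 libraries with stage as its only factor, TMM scaling and the filterByExpr filter, which left 16977 genes. P-values were adjusted by Benjamini-Hochberg over these genes, with a threshold of 0.05. A standard error is the log2 change divided by the square root of F. The procedure was also run on simulated counts with the same spread for all genes. That run cannot test a spread that differs by gene or a large shift in composition, and no conclusion is drawn from it. No pair of replicates was a duplicate (lowest chi-square per degree of freedom 43.7, over genes with at least 20 counts).

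Gene names were taken from the table, and all 23 matched a symbol in the RefSeq table of ARS-UI_Ramb_v3.0, from which overlaps of genes were taken but no coordinates, since the builds may differ. One member that entered the counts is not reported here. No sequences or transcript lengths were used, so the UGT1A shares are shares of counts, uncorrected for length.

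Members with a mean of at least 10 CPM in their highest stage are given by library, and the others by ranges, with names for those called or at the floor of 3 counts. Members and lists were chosen with earlier results of these data known. Alternatives were RLE factors, total counts, TMM factors that omit the 20 most abundant genes, no low-count filter, a filter of 1 CPM in at least 4 libraries, DESeq2 1.42.0, only the stages compared, a replicate block, GD100 replicate 1 alone, and each library left out. Summing UGT1A, leaving out GD100 replicates 2 and 3, and the ratios to hepatocyte markers were added after the data were seen.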

Additional observations from a re-analysis of the deposited data

Results flagged for a closer look

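In 54 groups, each of 1 gene in 1 stage, 6 had a library far from the others, measured by its gap to the nearest one over the whole range of the group. Chance flags about 1 in 20 such groups. CES3 in GD124 replicate 1 was at 70.0 CPM, while the other GD124 libraries lay between 40.4 and 44.6 CPM. CES4A in GD124 replicate 2 was at 3.06 CPM, below 9.25 to 11.1 CPM in the others. FMO2 in GD144 replicate 3, the library with the most erythroid marker counts of its stage, was at 1.35 CPM, above 0.0300 to 0.519 CPM. UGT1A6 in GD124 replicate 5 was at 37.8 CPM, below 107 to 134 CPM. UGT1A9 was at 0.391 CPM in GD100 replicate 4 and at 0 in the other GD100 libraries, and at 0.470 CPM in GD124 replicate 3 against 0.0947 to 0.130 CPM in the others.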

How the results depend on the processing

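The count of members called higher at GD124 than at GD100 was 9, with 5 to 9 when single libraries were left out, 4 with GD100 replicate 1 alone and 3 without GD100 replicates 2 and 3. The count called lower there was 0 (0 to 1 without single libraries), and 1 (FMO2) with DESeq2, with only the 2 stages compared or without GD144 replicate 3. FMO2 had an unadjusted edgeR p of 0.0373 in that comparison. Without single libraries, 8 to 11 members were higher and 3 lower at GD144 than at GD124, and 12 to 13 higher and 2 to 3 lower at GD144 than at GD100. The interval difference was called for 3 members, and for 1 to 4 without single libraries. The replicate numbers did not pair the samples, since deviations of libraries with the same number correlated at -0.155 to 0.144. With the replicate block, 8 rose and 0 fell earlier, 6 rose and 3 fell later (UGT2B7 at an adjusted p of 0.0738), 12 rose and 3 fell over the span, and the interval difference was called for 1 member. Signs turned in comparisons that were not called: with the block for UGT1A3 later (-0.15) and SULT1C2 over the span (0.10), with GD100 replicate 1 alone for FMO4 over the span (-0.15), and without GD100 replicates 2 and 3 for FMO4 (-0.023) and SULT1C2 (0.046) over the span and GSTA1-1 earlier (-0.0057). They also turned without GD144 replicate 2 for SULT1C2 over the span (0.059) and FMO5 later (0.0074), without GD124 replicate 2 for FMO5 later (0.033) and without GD100 replicate 1 for CES4A earlier (0.18). Over all single libraries left out these log2 changes ranged from -0.31 to 0.059 for SULT1C2, from -0.23 to 0.033 for FMO5 and from -0.65 to 0.18 for CES4A. The causes were not tested. Depth limits UGT1A4, UGT1A9, UGT2B7, FMO1 and the SULT genes, with few counts per library.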
